A study of Mus musculus with 4 samples.

Results

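Aminoacyl-tRNA synthetases are the enzymes that join each amino acid to its tRNA. The 36 genes described here were chosen by name from a list of cytosolic and mitochondrial synthetases, out of 41324 genes in the deposited table. The rule used no measured value, but the choice was made with earlier results of these data known. Of these, 20 encode the cytosolic enzymes and 16 encode enzymes that work in mitochondria, whose symbols end in 2. Gars and Kars are known to supply a mitochondrial form as well.

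The cells were RAW264.7, a mouse macrophage line. They were kept in 10 µg/ml actinomycin D, which stops transcription by binding DNA, for 2, 4 or 6 h, or were left untreated (0 h), so that mRNA half-lives could be estimated. Each of the 4 times has 1 library, made from what the labels call cytoplasmic RNA after removal of ribosomal RNA, with a kit that keeps strand. Separate cultures for the times are not mentioned, nor is a vehicle or any other treatment.

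In the cytosol each enzyme charges the tRNAs of its amino acid, and the charged tRNA is handed to elongation factor 1A and then to the ribosome. Several cytosolic synthetases are bound together with scaffold proteins in the multisynthetase complex. Mitochondria translate a small set of respiratory chain proteins with their own tRNAs, and most of the enzymes that charge these are encoded by separate nuclear genes and imported. When uncharged tRNA builds up, the kinase GCN2 (gene Eif2ak4) is activated and translation of the transcription factor ATF4 goes up, and many cytosolic synthetase genes are known ATF4 targets.

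Promoters of the members were read for a short motif of that pathway. The motif TGATGNAA, the core of the sites bound by ATF4 with C/EBP proteins, was searched on both strands from 250 bases before to 50 bases after each annotated start (RefSeq, GRCm38.p6), where 26 of the 36 genes had a promoter entry. It was present in 5 of 12 cytosolic genes (41.7%), in 0 of 14 mitochondrial genes and in 4.51% of 27025 genes with such an entry. The windows below have the motif, or its complement, in capitals and are written along the gene's own strand. They lie at chr4:129189890-129189929 on the plus strand (Yars), chr6:55037955-55037994 on the plus strand (Gars), chr8:111033714-111033753 and chr8:111033835-111033874 on the plus strand (Aars), chr13:49682121-49682160 on the plus strand (Iars) and chr15:11399650-11399689 on the minus strand (Tars).
Yars: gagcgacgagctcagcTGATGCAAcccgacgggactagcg
Gars: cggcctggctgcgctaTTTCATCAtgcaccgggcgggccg
Aars, first: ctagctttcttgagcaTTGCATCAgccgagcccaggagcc
Aars, second: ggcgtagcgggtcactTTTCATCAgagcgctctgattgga
Iars: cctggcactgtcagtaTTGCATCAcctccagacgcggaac
Tars: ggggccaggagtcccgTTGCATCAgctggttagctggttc

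The other end of the message was read in the same way, with no test between the lists. Annotated 3' UTRs (GENCODE M21, GRCm38) had a median length of 253 bases in the 19 cytosolic genes that had one, 557.5 bases in the 16 mitochondrial genes and 965 bases in 9498 tested genes. The motif TGTANATA, which Pumilio proteins bind, was searched as read in these 3' UTRs. It was found in 0 of 19 cytosolic genes, in 4 of 16 mitochondrial genes (25%) and in 24.3% of the tested genes, so the mitochondrial share was close to that of all tested genes. The motif ATTTA, known from many short-lived mRNAs, was found in 8 of 19 cytosolic genes (42.1%), 7 of 16 mitochondrial genes (43.75%) and 66.5% of the tested genes. A longer 3' UTR has more places for a match. Windows of 30 bases around each TGTANATA, in capitals, are shown for the 4 mitochondrial genes that have it, whose courses are described further on.
Yars2: gcccctcacaaTGTAAATActcatgtgcat
Mars2, first: acttcctatgtTGTATATAaaagcagatgt
Mars2, second: gttactgaaaaTGTATATAgttagttgcat
Iars2: agaataatgtaTGTATATAtatatatatgg
Nars2: tattagatgttTGTAAATAttctaatagtc
A match to any of these motifs is a description of the letters and does not show binding. With library totals adjusted by TMM the time slopes of Yars2 and Mars2 were negative, at −0.11 and −0.073 log2 per h, and those of Iars2 and Nars2 were positive, at 0.060 and 0.059. Over all tested genes with a 3' UTR, the median time slope was 0.0069 log2 per h for genes with no TGTANATA, −0.019 for those with 1 and −0.049 for those with more than 1.

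Total gene counts were 35669434, 38260540, 70289647 and 12762100 at 0, 2, 4 and 6 h, so values at 6 h carry the largest counting error. Macrophage markers were present (6 of 6 tested, summed level 3073, 3556, 4063 and 4624 CPM), while 7 of 10 markers of other cell types had 0 counts in every library and the highest of their counts was 31. The 36 synthetase genes took 0.412%, 0.596%, 0.594% and 0.520% of all counts at 0, 2, 4 and 6 h. The clone-named gene RP23-81C12.1 alone held 23.1%, 0.386%, 0.261% and 0.224% of all counts at the same times, which lowers every other gene's share in the untreated library. Levels are given as CPM, in which library totals were adjusted by TMM, a scaling that sets the bulk of genes level between libraries, so a change is relative to that bulk. This matters for direction: with the divisors behind the authors' normalized values the median gene moved by −0.52 log2 over 6 h relative to TMM.

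All 36 genes passed the filter of a mean CPM of at least 1, with the lowest counts in Pars2 (271, 100, 154 and 20 at 0, 2, 4 and 6 h). Per kilobase of coding transcript, the cytosolic mRNAs had a median level of 64.0, 69.3, 70.2 and 69.4 CPM per kb at 0, 2, 4 and 6 h. The mitochondrial ones had a median of 9.33, 9.07, 8.80 and 7.75 CPM per kb. On this scale Vars, the valine enzyme, was the highest at every time, between 157 and 184 CPM per kb. Cars, the cysteine enzyme, was the lowest cytosolic gene at 25.4 to 28.5 CPM per kb, and its range lay inside that of the mitochondrial list, whose highest gene reached 35.4 CPM per kb in untreated cells (Yars2) and 40.5 at 6 h (Lars2).

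Whether synthetase mRNAs were lost faster or slower than other mRNAs was asked with a straight line through the 4 times for each gene, fitted by edgeR's quasi-likelihood test with Benjamini-Hochberg adjustment over all 10837 tested genes. With no replicates, such p-values reflect how far these 4 libraries scatter about the line, with a spread that edgeR partly borrows from other genes. They do not measure variation between replicates. In bulk RNA, fewer cells and less RNA per cell cannot be told apart. Of the cytosolic mRNAs, 0 of 20 fell and 1 rose (Nars), against 17.2% of all tested genes that fell and 8.65% that rose. Of the mitochondrial mRNAs, 2 of 16 fell (Pars2 and Yars2) and 0 rose. At an unadjusted p under 0.05 there were 7 cytosolic and 6 mitochondrial genes, and 5127 of all tested genes.

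The median slope was 0.031 log2 per h in the cytosolic list and −0.016 in the mitochondrial list, beside 0.0014 for all tested genes. Cytosolic slopes ran from −0.065 (Rars) to 0.074 (Dars), and 16 of 20 were positive under TMM against 0 of 20 under the authors' divisors. Mitochondrial slopes ran from −0.41 (Pars2) to 0.18 (Lars2), and 7 of 16 were positive under TMM against 1 of 16 under the divisors. Both medians were positive with total counts (0.052 and 0.0045) and negative under the divisors (−0.056 and −0.10). The cytosolic median lay 0.047 log2 per h above the mitochondrial one, a gap that library scaling leaves almost as it is by construction, since it moves every gene of a library alike. Without the untreated library the gap was 0.021, and the cytosolic median lay 0.0020 above that of all tested genes, against 0.030 with all 4 libraries.

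**Figure D1:**
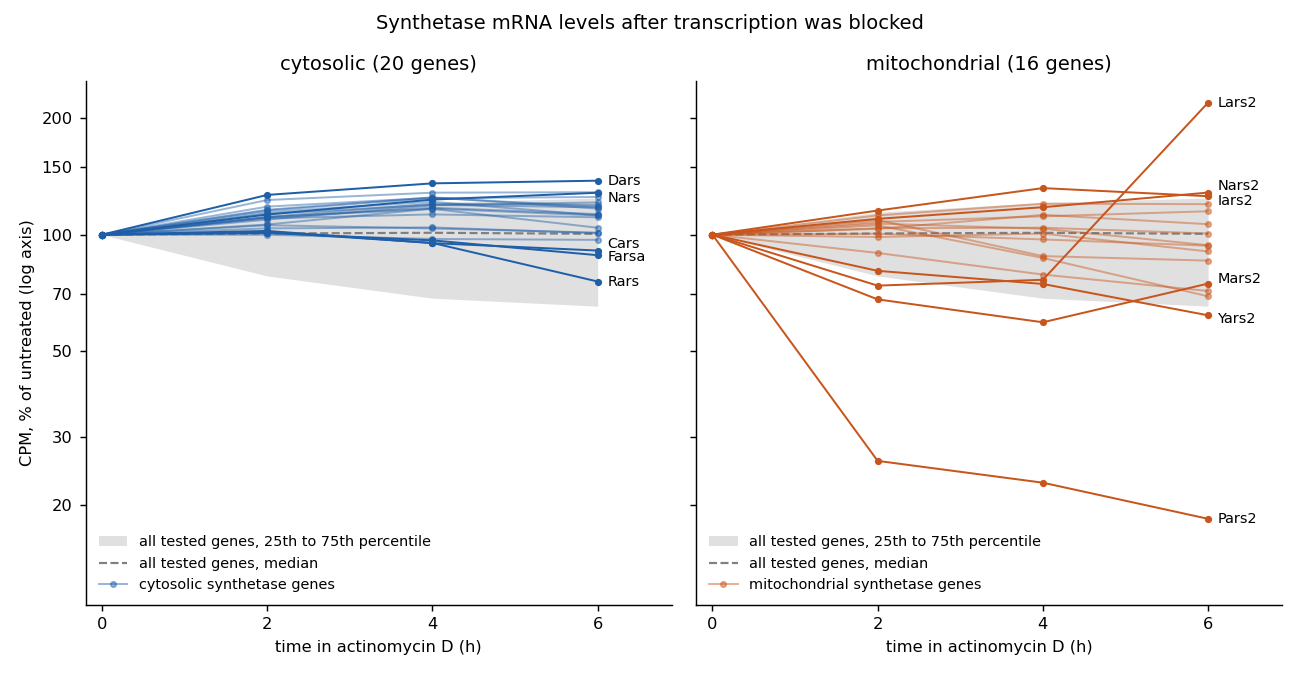
CPM of each synthetase gene as a percentage of its untreated level (vertical log axis) against hours in actinomycin D, for the 20 cytosolic genes (left, blue) and 16 mitochondrial genes (right, orange), with the median (dashed) and the interquartile range of all tested genes in grey; each point is 1 library. Cytosolic courses stay between 75.6% and 138% of untreated, while mitochondrial ones spread from Pars2 at 18.4% to Lars2 at 220% at 6 h.

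**Figure D2:**
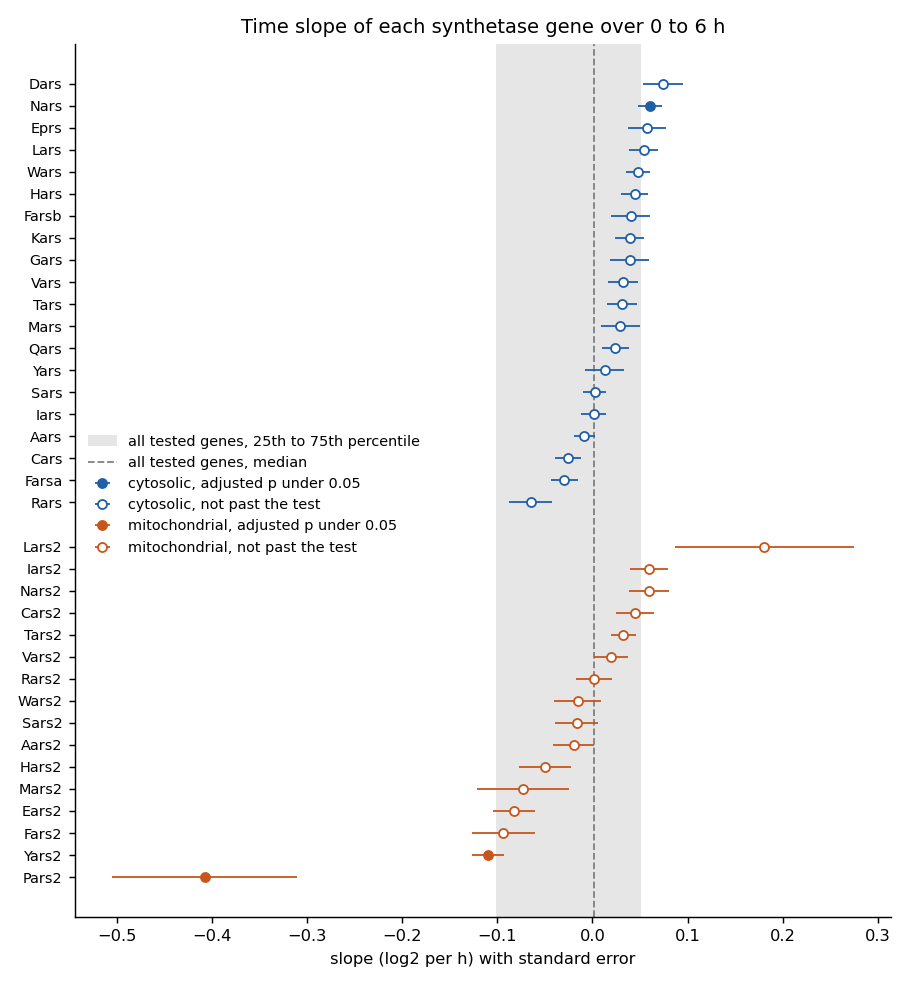
Time slope of each gene in log2 per h with its standard error from the fit, cytosolic genes above and mitochondrial genes below, filled where the adjusted p was under 0.05. Nars, Yars2 and Pars2 are the 3 filled points, and the grey band is the interquartile range of all tested genes.

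Nars, the asparagine enzyme, had 259, 292, 320 and 333 CPM at 0, 2, 4 and 6 h. Each later library was above the one before, and the slope was 0.061 ± 0.013 log2 per h (SE) with an adjusted p of 0.0382 by edgeR's quasi-likelihood test. This call did not survive leaving out the 0, 2 or 4 h library (adjusted p 0.101, 0.0858 and 0.154). It was also lost under 4 other scalings, with a slope of −0.026 (adjusted p 0.0879) under the authors' divisors. Dars, the aspartate enzyme and the steepest cytosolic slope, had 112, 142, 152 and 154 CPM. Its untreated level was the lowest of the 4, most of the difference was already there at 2 h, and the slope of 0.074 ± 0.021 had an adjusted p of 0.0627.

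The 3 cytosolic genes with the most counts were Vars, Eprs and Gars. Vars had 636, 676, 743 and 714 CPM at 0, 2, 4 and 6 h. Eprs, a fused enzyme that charges both glutamate and proline tRNAs, had 363, 446, 466 and 467 CPM. Gars, the glycine enzyme, had 272, 316, 340 and 318 CPM. In all 3 the untreated library was the lowest. The 4 h and 6 h libraries were close to each other in Vars and Eprs, while the 6 h level of Gars was near its 2 h level.

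A level above untreated by 2 h that did not go much further was common in the cytosolic list. A further test asked whether a course bends away from a line, through a quadratic term in time that leaves 1 residual degree of freedom, where a negative term means a course that flattens or turns down. All 20 cytosolic terms were negative under TMM, against 7 of 20 under the authors' divisors or ribosomal protein scaling. Their median under TMM was −0.011 beside −0.0012 for all tested genes, and under the divisors it was 0.0030 beside 0.013. By edgeR's quasi-likelihood test with Benjamini-Hochberg adjustment 10 of 20 bent downward and 0 upward, against 12.0% and 18.9% of all tested genes. The 10 were Dars, Eprs, Farsb, Gars, Kars, Lars, Mars, Rars, Tars and Yars, and their adjusted p ran from 0.0065 (Rars) to 0.0452 (Kars). The median cytosolic change from untreated was 0.15, 0.24 and 0.17 log2 at 2, 4 and 6 h. The count of bends depended on scaling: it was 7 with DESeq2 size factors (11.1% of all genes), 20 with total counts (45.4%) and 0 under the authors' divisors or ribosomal protein scaling. In those last 2 settings 0.627% and 1.07% of all genes bent downward.

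The 8 enzymes of the multisynthetase complex were Dars, Eprs, Iars, Kars, Lars, Mars, Qars and Rars. None of the 8 passed the slope test and 6 bent downward under TMM, beside 12.0% of all tested genes. Under the authors' divisors or ribosomal protein scaling 0 of the 8 bent downward. Kars, the lysine enzyme, had 154, 174, 184 and 181 CPM at 0, 2, 4 and 6 h. Lars, for leucine, had 216, 249, 268 and 270 CPM. Mars, for methionine, had 201, 230, 244 and 225 CPM. These 3 were lowest in untreated cells, as was Qars, for glutamine, at 136, 150, 154 and 151 CPM. Iars, for isoleucine, was nearly level at 297, 314, 308 and 301 CPM, with a slope of 0.0012 ± 0.013 log2 per h.

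Rars, the arginine enzyme, was the exception in the complex. It had 157, 159, 149 and 119 CPM at 0, 2, 4 and 6 h, which is 102%, 95.2% and 75.6% of untreated. The first 3 libraries were close together and the 6 h library was the low one, with a counting interval of 71.3% to 80.2%. Its last step, from 4 to 6 h, was at percentile 6.41 among all tested genes. The slope of −0.065 ± 0.023 log2 per h had an adjusted p of 0.0911 by edgeR's quasi-likelihood test. It was −0.11 without the untreated library, −0.060 without the 2 h library and −0.074 without the 4 h library. Without the 6 h library it was −0.018, so most of the slope rests on that library.

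The complex also has 3 scaffold proteins that are not enzymes. Aimp2, which holds the lysine and aspartate enzymes in the complex, had 57.9, 46.7, 37.9 and 28.9 CPM at 0, 2, 4 and 6 h. Each library was below the one before, at 80.8% and 65.5% of untreated at 2 and 4 h. Aimp2 fell, with a slope of −0.17 ± 0.016 log2 per h and an adjusted p of 0.0153, or 0.0546 without the 4 h library and 0.142 with total counts. Aimp1 had 52.7, 59.6, 56.1 and 46.6 CPM and bent downward (adjusted p 0.00763). Eef1e1, the third scaffold protein, stayed between 96.1% and 103% of untreated. At 6 h the enzymes of the complex other than Iars and Rars stood at 111% (Qars) to 138% (Dars) of untreated.

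Tars, for threonine, had 203, 225, 238 and 229 CPM at 0, 2, 4 and 6 h. Yars, for tyrosine, had 165, 183, 193 and 172 CPM. Both peaked in the 4 h library and both bent downward. The remaining cytosolic genes Aars, Cars, Hars, Sars and Wars were between 91.0% (Cars) and 121% (Wars) of untreated at 6 h. Aars shares 1326 of its 9282 exon bases with Exosc6 on the same strand, where Exosc6 had 0 counts in every library. How reads in shared exons were counted is not given, so these 0 counts do not show that Exosc6 RNA was absent. Reads in the bases that this pair shares cannot be told apart. By structural class, the median slope was 0.024 log2 per h in 9 class I enzymes and 0.039 in 10 class II enzymes, a description of fixed lists with no test between them.

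Phenylalanine tRNA is charged in the cytosol by an enzyme of paired subunits, alpha from Farsa and beta from Farsb. Farsa had 101, 102, 97.5 and 89.3 CPM at 0, 2, 4 and 6 h. Farsb had 113, 133, 141 and 133 CPM. Only Farsb stood above its untreated level at 4 and 6 h. The ratio of Farsa to Farsb counts within a library, which no scaling can alter, was 0.894, 0.764, 0.693 and 0.669. At 6 h the log2 ratio was −0.42 from untreated, with a counting interval of −0.55 to −0.29. There is no replicate check of this difference.

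Pars2 charges proline tRNA in mitochondria, and its gene lies at chr4:106651069-106655282 on the plus strand (GRCm38). It had 8.90, 2.31, 2.03 and 1.64 CPM at 0, 2, 4 and 6 h. The untreated library stood far above the other 3, which were 25.9%, 22.8% and 18.4% of it, and the 6 h interval was 11.04% to 28.9% from 20 counts. Pars2 fell, with a slope of −0.41 ± 0.097 log2 per h (adjusted p 0.0470, edgeR), and bent upward (term 0.11, adjusted p 0.0265), with most of the difference already present at 2 h. Its slope was at percentile 2.06 of all tested genes. Without the untreated library the slope was −0.12 with an adjusted p of 0.395, without the 4 h library the adjusted p was 0.114, and under ribosomal protein scaling it was 0.0543.

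Yars2, the mitochondrial tyrosine enzyme at chr16:16302965-16309640 on the plus strand, had 55.7, 44.9, 41.5 and 34.4 CPM at 0, 2, 4 and 6 h. Each library was below the one before, at 80.6%, 74.5% and 61.8% of untreated. Yars2 fell, with a slope of −0.11 ± 0.017 log2 per h and an adjusted p of 0.0251 by edgeR's quasi-likelihood test. Without the 4 h library the adjusted p was 0.0877, and with total counts it was 0.480. The call held under the other 4 scalings tried.

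Lars2, the mitochondrial leucine enzyme at chr9:123366927-123462666 on the plus strand, had 71.7, 52.9, 54.8 and 158 CPM at 0, 2, 4 and 6 h. The 2 h and 4 h libraries were below the untreated one, at 73.8% and 76.4%, and the 6 h library was the highest of the 4, at 220% (interval 207% to 234%). Lars2 bent upward, with a quadratic term of 0.12 and an adjusted p of 0.00017 by edgeR's quasi-likelihood test, while the slope of 0.18 ± 0.094 log2 per h had an adjusted p of 0.192. The step from 4 to 6 h was 1.52 log2, at percentile 99.8 of all tested genes, and it rests on the 6 h library alone. The mitochondrial ribosomal RNAs were also high in that library: mt-Rnr2 was at 188%, 273% and 733% of untreated at 2, 4 and 6 h, and mt-Rnr1 at 194%, 242% and 664%. Their part in the Lars2 value was not tested. The coding transcript of Lars2 shared 0 runs of 31 letters with either of them, on either strand. Only exact runs in that transcript were searched. Other exons of the gene and inexact matches were not, so this does not show how reads were assigned.

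Mars2 charges methionine tRNA in mitochondria, from a gene at chr1:55237177-55248470 on the plus strand. It had 27.7, 18.8, 16.4 and 20.7 CPM at 0, 2, 4 and 6 h, which is 68.0%, 59.3% and 74.7% of untreated. The untreated library was the highest and the 4 h library the lowest. Mars2 bent upward (term 0.056, adjusted p 0.0029, edgeR), and its slope of −0.073 ± 0.048 log2 per h had an adjusted p of 0.280. The sign of this slope rested on the untreated library: fitted to 2, 4 and 6 h only, it was 0.028 (adjusted p 0.671, edgeR). Fitted to 0, 2 and 4 h it was −0.19 (adjusted p 0.0381). Dropping 2 h gave −0.086 (adjusted p 0.219) and dropping 4 h gave −0.058 (adjusted p 0.430). With total counts the bend of Mars2 had an adjusted p of 0.333. Its annotated coding transcript has a single exon, as have 2.04% of 9643 tested genes, and a 3' UTR of 9470 bases, the longest in either list.

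The mitochondrial genes with the most counts were Iars2, Tars2 and Lars2. Iars2, for isoleucine, had 112, 130, 148 and 141 CPM at 0, 2, 4 and 6 h. It bent downward like many cytosolic genes (term −0.017, adjusted p 0.0276) and was the only mitochondrial gene to do so under TMM, with no such call under ribosomal protein scaling or the divisors (adjusted p 0.706 and 0.676). Iars2 shares 2034 of its 8885 exon bases with Rab3gap2 on the opposite strand. Rab3gap2 stood at 113%, 121% and 127% of untreated beside 115%, 132% and 126% for Iars2. Without a stated counting strand, reads in the shared bases cannot be told apart. Tars2, for threonine, had 80.0, 86.3, 89.2 and 92.0 CPM, with a slope of 0.033 ± 0.013 log2 per h and an adjusted p of 0.113.

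Ears2 and Fars2, for glutamate and phenylalanine, came next after Pars2 and Yars2 in how far they stood below their untreated level at 6 h. Ears2 had 19.4, 17.4, 15.3 and 13.9 CPM at 0, 2, 4 and 6 h, with an adjusted p of 0.0575 for its slope. Fars2 stood at 106%, 87.0% and 69.2% of untreated at 2, 4 and 6 h, with an adjusted p of 0.0942. Neither passed the test, although the counting intervals at 6 h, 59.9% to 84.9% and 57.3% to 83.2% of untreated, lay below 100%. The other mitochondrial genes Aars2, Cars2, Hars2, Nars2, Rars2, Sars2, Vars2 and Wars2 were between 85.7% (Hars2) and 129% (Nars2) of untreated at 6 h.

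Since the enzymes of cytosol and mitochondrion come in pairs by amino acid, each pair can be compared inside a library, where no scaling enters. There were 16 such pairs, with Eprs set against both Ears2 and Pars2. For phenylalanine, Farsa was set against Fars2 (5.77, 5.52, 6.41 and 7.38 at 0, 2, 4 and 6 h). Farsb, whose course differed from that of Farsa, was not used, and the counts of pairs rest on that choice. The ratio of cytosolic to mitochondrial counts was above its untreated value in 12 pairs at 2 h, 12 at 4 h and 10 at 6 h, with a median log2 change of 0.037, 0.13 and 0.10. The counting interval lay above 0 in 5, 7 and 7 pairs and below 0 in 1, 3 and 4 pairs. These intervals cover counting error only, and there is no replicate of any time.

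Eprs to Pars2 moved furthest, with count ratios of 40.8, 193, 230 and 286 at 0, 2, 4 and 6 h. Eprs to Ears2 was 18.7, 25.6, 30.4 and 33.6, and also higher in each later library. Yars to Yars2 was 2.97, 4.09, 4.64 and 5.00, higher in each later library. Mars to Mars2 was 7.25, 12.2, 14.9 and 10.9, highest at 4 h. Hars to Hars2, genes that share 195 exon bases on opposite strands, was 4.99, 5.08, 6.82 and 6.96. In 8 of the 16 pairs the ratio was above its untreated value at every later time, and in 4 of these (the Ears2, Mars2, Pars2 and Yars2 pairs) the counting interval lay above 0 each time. The other 4 were the Hars, Sars, Vars and Wars pairs. In 3 pairs the ratio was below its untreated value at every later time. Iars to Iars2 was 2.64, 2.42, 2.08 and 2.13, and Cars to Cars2 was 3.65, 3.33, 2.89 and 2.77. Rars to Rars2 was 5.73, 5.60, 5.23 and 4.30, where the cytosolic gene is the one with the low 6 h value. Lars to Lars2 changed side, at 3.01, 4.71, 4.89 and 1.71. Summed over each list, mitochondrial genes held 12.12%, 10.9%, 10.7% and 12.34% of synthetase counts, and 10.8%, 9.98%, 9.76% and 9.72% when Lars2 was left out.

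**Figure D3:**
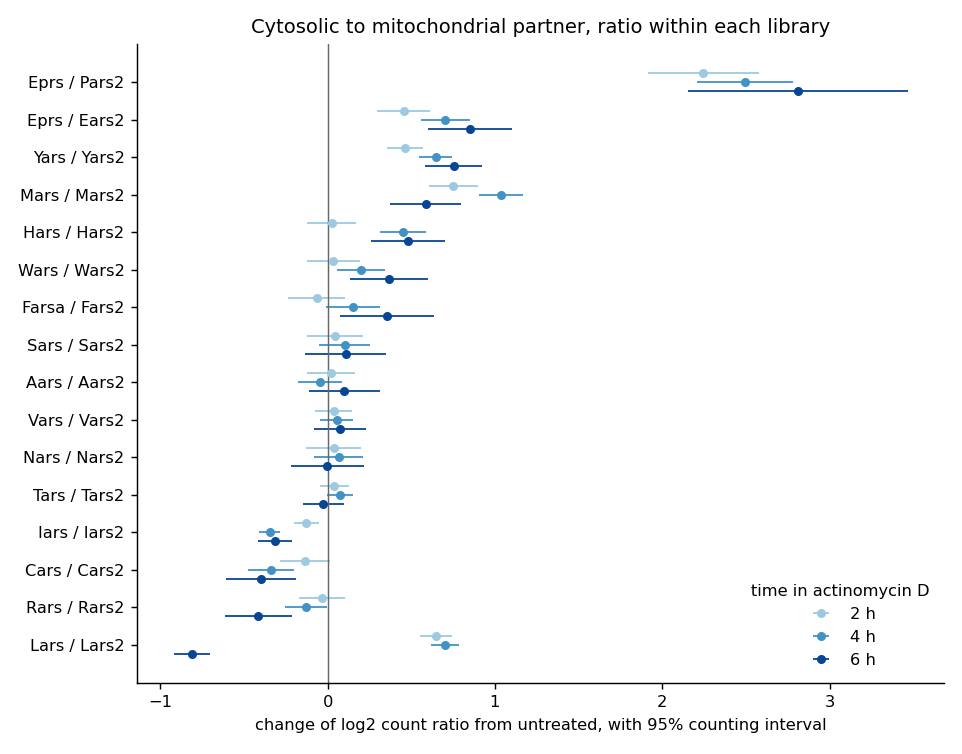
Change of the log2 count ratio of each cytosolic gene to its mitochondrial partner from the untreated library (horizontal axis, log2), at 2, 4 and 6 h, with 95% counting intervals. Eprs / Pars2 lies at 2.24 at 2 h and 2.81 at 6 h, and Lars / Lars2 lies at 0.65 and 0.70 at 2 and 4 h and at −0.81 at 6 h.

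The authors' deposited table gives a half-life for every synthetase gene. In that table the cytosolic genes had a median of 16.6 h and ran from 7.50 h (Rars) to 51.9 h (Eprs, R2 0.676). This leaves out Dars, whose value is negative, with an R2 of 0.0068. In the same deposited table the mitochondrial genes had a median of 8.001 h and ran from 1.35 h (Pars2) to 48.9 h (Iars2, R2 0.847). The positive values of all tested genes in the authors' deposited table had a median of 7.43 h. Half-lives under 6 h were given in the authors' deposited table for 0 of 20 cytosolic genes, 5 of 16 mitochondrial genes (31.25%) and 38.9% of tested genes. The 5 in the authors' deposited table were Pars2, Mars2 (3.05 h), Lars2 (4.12 h), Yars2 (4.21 h) and Ears2 (4.86 h).

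All 14957 deposited half-lives were recovered within 0.1% by a log regression through the untreated value over 0, 2 and 4 h of the authors' normalized values. The 6 h library was therefore not part of them. Half-lives far above 4 h, such as those of Eprs and Iars2, thus reach beyond the times they were fitted to. With the 6 h library added to the same regression, the cytosolic median was 17.9 h and the mitochondrial median 9.40 h. Lars2 then had 48.8 h, against 4.12 h in the authors' deposited table, Mars2 had 4.59 h, and Dars had a positive 188 h. The other 4 genes under 6 h apart from Lars2 stayed under 6 h, and Fars2 joined them at 5.98 h against 6.52 h in the authors' deposited table.

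**Figure D4:**
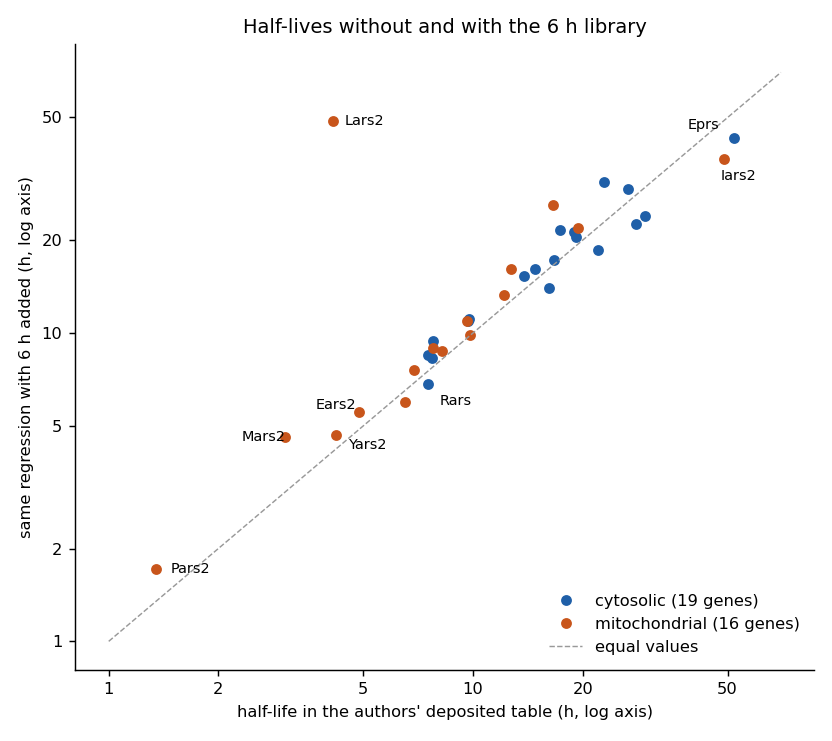
Half-life in hours from the authors' deposited table (horizontal log axis) against the same regression with the 6 h library added (vertical log axis) for 35 synthetase genes, leaving out Dars, whose deposited value is negative; each point is a gene. Most genes lie near the dashed line of equal values, and Lars2 stands apart at 4.12 h and 48.8 h.

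Half-lives from the deposited values and TMM slopes sit on different scales. Under the authors' divisors 17 of 20 cytosolic and 11 of 16 mitochondrial genes fell, with 46.5% of all tested genes, and the median slopes were −0.056 and −0.10 log2 per h beside −0.086 for all tested genes. Under ribosomal protein scaling 6 and 3 fell, with 23.9% of all tested genes. The direction of most single synthetase genes thus depended on the scaling.

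**Figure D5:**
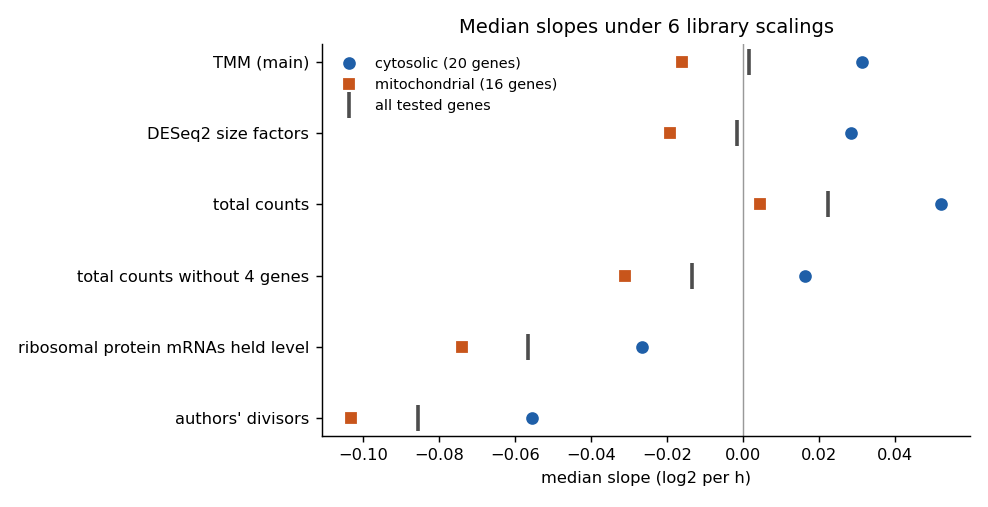
Median slope (log2 per h) of the cytosolic list (circles), the mitochondrial list (squares) and all tested genes (bars) under 6 library scalings. The medians shift together, from 0.031, −0.016 and 0.0014 under TMM to −0.056, −0.10 and −0.086 under the authors' divisors.

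The genes that take up or work beside the charged tRNAs were read from fixed lists. Of 7 elongation factor genes listed for delivery of aminoacyl-tRNA to the ribosome, 0 fell, 0 rose and 3 bent downward under TMM. The shares of all tested genes were 17.2%, 8.65% and 12.0%. Under the authors' divisors or ribosomal protein scaling only 0.627% and 1.07% of all tested genes bent downward. Bends of these 7 genes under those scalings are not given here. Eef1a1, the elongation factor that carries charged tRNA in the cytosol, had 4794, 5683, 6200 and 6084 CPM at 0, 2, 4 and 6 h, lowest in untreated cells and nearly level from 4 to 6 h like Eprs. Of 5 tested genes for editing and release of faulty or peptidyl tRNA, 1 fell and 1 rose, beside 17.2% and 8.65%. Ptrh2, a peptidyl-tRNA hydrolase, had 27.3, 19.5, 13.5 and 11.9 CPM and fell (slope −0.21 ± 0.028 log2 per h, adjusted p 0.0209, edgeR, or 0.0666 without the 4 h library), and Dtd1, which removes D-amino acids from tRNA, had 24.1, 29.3, 32.3 and 34.3 CPM and rose (adjusted p 0.0484). The Dtd1 call was lost under 5 other scalings (slope −0.0034 under the authors' divisors), and leaving out any of the 4 libraries gave an adjusted p of 0.0622 to 0.184.

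Mitochondria lack a separate glutamine enzyme and convert charged glutamate on the tRNA with the GatCAB complex. Its subunit Qrsl1 had 21.5, 15.8, 9.30 and 6.95 CPM at 0, 2, 4 and 6 h, and fell to 32.3% of untreated at 6 h (slope −0.28 ± 0.029 log2 per h, adjusted p 0.0162, edgeR). Without the 4 h library its adjusted p was 0.0525. The other subunits Gatb and Gatc stood at 116% and 87.2% of untreated at 6 h and did not pass the test. Mtfmt, which formylates the initiator methionine tRNA that Mars2 charges, had 19.2, 11.8, 10.5 and 10.1 CPM, with an adjusted p of 0.0614 for its slope and an upward bend (adjusted p 0.0324). As in Mars2, the untreated library was the highest of the 4 and most of the difference was present at 2 h.

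Of 11 tRNA maturation genes 2 fell and 0 rose, close to the 17.2% and 8.65% of all tested genes. Pop1, a subunit of RNase P and MRP, had 57.0, 46.3, 33.8 and 24.4 CPM at 0, 2, 4 and 6 h and fell (slope −0.21 ± 0.018 log2 per h, adjusted p 0.0145, edgeR). Tsen54, a subunit of the tRNA splicing endonuclease, fell to 54.5% of untreated at 6 h (adjusted p 0.0344, edgeR). This call was lost without the 4 h library (adjusted p 0.107), without the untreated library (slope −0.090, adjusted p 0.0855) and with total counts (adjusted p 0.220). Rtcb, the tRNA ligase and the gene of the list with the most counts, was at 100% of untreated at 6 h. Of 3 enzymes of the selenocysteine tRNA pathway 0 fell and 0 rose, and Sephs2, with the most counts, stood at 82.5% of untreated at 6 h.

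Among 11 tested genes of the response to uncharged tRNA 2 fell and 0 rose, and 6 bent upward, beside 17.2%, 8.65% and 18.9% of all tested genes, so the count that fell was near the background. Cebpb had 166, 50.7, 26.4 and 31.6 CPM at 0, 2, 4 and 6 h and Cebpg had 44.2, 29.5, 16.7 and 13.2 CPM. Both encode C/EBP transcription factors, and both fell (adjusted p 0.0463 and 0.0150, edgeR). The Cebpb slope of −0.40 log2 per h was −0.18 without the untreated library and −0.66 without the 6 h library, and its adjusted p was 0.0749 without the 4 h library and 0.0561 under ribosomal protein scaling. Atf4 had 204, 136, 134 and 146 CPM, with most of its difference at 2 h, an upward bend (adjusted p 0.00113) and an adjusted p of 0.181 for its slope. Gcn1l1, a partner of GCN2 and the gene of the list with the most counts, was at 115% of untreated at 6 h. Asns, the asparagine synthetase gene, is an ATF4 target that makes the substrate of Nars, and it had 124, 147, 159 and 160 CPM (adjusted p 0.0582). Other genes of this list stood lower at 6 h: Trib3, Sesn2, Chac1 and Ddit3 were at 22.3%, 23.0%, 60.8% and 76.7% of untreated. Their counts at 6 h were low, from 22 (Trib3) to 54 (Sesn2). Ppp1r15a was at 184% and Eif2ak4 at 101%. None of these passed the slope test.

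In the amino acid supply list 1 of 12 fell and 0 rose, beside the same 17.2% and 8.65%. Slc38a2, a carrier of small neutral amino acids and the gene of that list with the most counts in untreated cells, had 786, 224, 144 and 133 CPM at 0, 2, 4 and 6 h. It fell to 16.9% of untreated at 6 h (slope −0.42 ± 0.084 log2 per h, adjusted p 0.0364, edgeR). Its adjusted p was 0.0718 without the 4 h library, and its slope was −0.19 without the untreated library. The serine pathway enzymes Phgdh, Psat1 (the most counts of the list by mean CPM), Psph and Shmt2 stood at 119% to 126% of untreated at 6 h and did not pass the slope test.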

How the data were processed

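RNA from 4 RAW264.7 libraries (0, 2, 4 and 6 h of actinomycin D, 1 per time) was analysed, each placed by the treatment in its labels. The submitters' processing notes name mm10, STAR 2.5.3a, Subread 1.6.3 and featureCounts. Which annotation release, counting strand and rule for multiply matching reads they used is not given in the sources used. The deposited table of 41324 genes held raw counts, as deposited, which entered the fits unchanged. The authors' normalized signal columns equal these counts over 1300, 2250, 4476 and 748 at 0, 2, 4 and 6 h, as found by recomputation. The deposited half-life column was taken as a score, and the deposited R2 column as a fraction. Columns not matched to a sample numbered 0.

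Slopes in log2 per h came from edgeR 4.0.16 under R 4.3.3 (TMM, mean CPM of at least 1, glmQLFit, 2 residual degrees of freedom) and bends as the quadratic term (1 residual degree of freedom). Genes were called at a Benjamini-Hochberg adjusted p under 0.05. The median log2 changes from untreated used a prior count of 0.5. Intervals are exact binomial at 95%, or normal on the log ratio within a library, and cover counting error only. The fits were tested on simulated courses that were flat or straight. The sloping ones were steeper than those of every member but Pars2, so that test does not cover smaller slopes or bends. DESeq2 1.42.0 was an alternative, beside 5 other scalings, no filter, a mean CPM of at least 5, each library left out, and edgeR with estimateDisp, which was chosen after seeing the data. Full values were given for members past a test, the 3 most abundant of each list, the steepest of each, Farsa and Farsb, and the 8 enzymes of the multisynthetase complex. Of other lists, values were given for members past the slope test and the most abundant member. Others were named after their values were seen. The members, lists and tests were chosen with earlier results of these data known, so counts over lists are descriptions. Gene models came from GENCODE M21, promoters from RefSeq. Protein sequences were not used here, and 1 gene of the tRNA maturation list is not reported here and is left out of its counts.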

Additional observations from a re-analysis of the deposited data

How the results depend on the processing

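Library scaling moves every gene of a library alike, so it cannot test the gap between the cytosolic and mitochondrial median slopes, but it changed the counts of calls. Under the authors' divisors 5038 genes of all those tested fell and 79 rose, with 17 cytosolic and 11 mitochondrial genes that fell, 0 cytosolic that rose and 0 cytosolic bends downward. Under ribosomal protein scaling 134 genes rose, 6 cytosolic genes fell, 0 rose and 0 bent downward. With total counts 208 genes rose, 0 cytosolic genes rose, 1 mitochondrial gene fell, 1 rose and 20 cytosolic genes bent downward. Without 4 rRNA-like and mitochondrial rRNA genes in the total, 335 genes rose and 0 of them were cytosolic synthetases. With DESeq2 1529 genes rose, among them 5 cytosolic and 1 mitochondrial, and 1 cytosolic gene fell. At a mean CPM of at least 5, 2 cytosolic genes rose and 1 mitochondrial gene fell, beside 10.7% and 19.8% of the 8995 genes tested there. Pars2, with a mean of 3.72 CPM, was removed by that filter and so was not tested.

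Leaving out each library in turn gave 352 (without 4 h) to 2234 (without 6 h) genes that fell and 25 to 1123 that rose. It gave 0 to 1 cytosolic genes that fell and 0 to 5 that rose, and 0 to 3 mitochondrial genes that fell and 0 to 1 that rose. The cytosolic median slope lay 0.0020 (without 0 h) to 0.057 (without 6 h) above that of all tested genes and 0.021 to 0.065 above the mitochondrial one.

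Positive slopes numbered 16 of 20 cytosolic and 7 of 16 mitochondrial under TMM, 3 and 3 under ribosomal protein scaling, and 0 and 1 under the authors' divisors. Among synthetase genes past the test under TMM or the divisors, and genes of the other lists past it under TMM, the slope turned negative under the divisors for Farsb (−0.047), Gars (−0.048), Hars (−0.043), Iars (−0.085), Kars (−0.048), Lars (−0.033), Mars (−0.058), Nars (−0.026), Qars (−0.063), Sars (−0.085), Tars (−0.056), Vars (−0.055), Wars (−0.039), Yars (−0.074), Rars2 (−0.085), Tars2 (−0.054), Vars2 (−0.067), Dtd1 (−0.0034), and the markers Adgre1 (−0.00073) and Cd68 (−0.037). For ribosomal protein scaling the rule was the same, with that setting in place of the divisors. By it the slope turned negative for Iars (−0.056), Sars (−0.056) and Cd68 (−0.0079). Other synthetase slopes also turned negative there, such as Yars (−0.045), in genes that passed the test under neither TMM nor that scaling. The bend of Kars, Lars and Tars turned to 0.0018, 0.0020 and 0.0017 under the divisors and to 0.0015, 0.0016 and 0.0013 under ribosomal protein scaling. Bends could not be fitted with a library left out, which leaves no residual degree of freedom. A single library per time, 20 counts of Pars2 at 6 h and 12762100 counts in all at 6 h limit what these data can show.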
